A study of Mus musculus with 13 samples.

Results

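The regions acetylated on histone H3 at lysine 27 (H3K27ac) in a C2C12 line without hotspot H1 were compared with those in a line without hotspot H3. These were 2 of the 13 samples that the labels describe, chosen as the single hotspot deletions whose peak lists came in the same format. C2C12 is a mouse myoblast line that fuses into myotubes when serum is lowered. Both lines were made with CRISPR/Cas9, and both were collected 48 h after the change to differentiation medium with 2% horse serum. Their state was read in 7 time course libraries, taken from unedited cells at -24, 0, 6, 12, 24, 48 and 72 h relative to that change, and in a line with Myod1 knocked out, at 48 h. A further pair of edited lines at 48 h carried the H3 deletion together with a deletion of H2 (H23) or of H4 (H34), made by deleting H3 in a line that already lacked H2 or H4. The lists of 12 samples were read. The CRISPR control, labelled 48 h, was not analysed here, so what editing and selection alone do to the profile was not measured. Each deletion was 1 line and 1 library, and the labels do not say whether a line was 1 clone. No test between the lines could therefore be run. A difference between the deletions and a difference between these 2 lines or libraries cannot be told apart. Where the hotspots lie is not given in the sources used here, so the deletions themselves could not be checked in the lists.

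H3K27ac lies on active promoters and enhancers, and long clusters of strongly acetylated enhancers are called super-enhancers. MyoD, the factor encoded by Myod1, binds enhancers of muscle genes and drives myoblasts to leave the cell cycle, differentiate and fuse. The study's title ties the activity of super-enhancers to contacts between hotspots, MyoD and FoxO3, a forkhead factor, and the labels do not define a hotspot further. A region that gains H3K27ac late in differentiation is a candidate enhancer or promoter of the myotube program, and one that loses it is a candidate part of the myoblast program.

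The H1 list held 137960 peaks and the H3 list 103134. Each peak carried the −log10 p-value that the peak caller gave to its enrichment. A common minimum of 4 was used, because the H1 list held many more weak peaks than the H3 list. It kept 129027 peaks over 68.9 Mb in H1 and 101905 peaks over 58.2 Mb in H3. In H1 it removed 8933 peaks (6.48%) and in H3 it removed 1229 (1.19%). The strongest peak removed stood at 3.994 in H1 and 3.996 in H3, and the weakest peak kept stood at 4.008 in both. Just under the minimum, between 3.9 and 4, lay 5683 peaks of H1 and 56 of H3. Peaks kept in H1 were slightly narrower and weaker than those in H3, with medians of 312 and 326 bp in width and of 8.38 and 9.59 in −log10 p. Read depth was unknown, and no list was longer than that of H1, so the main counts were repeated with equal numbers of strongest peaks in both lines.

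The lines shared their strong and broad regions and differed in weak and narrow ones. Merging overlapping peaks of both lines gave 147119 regions. Both lines had a peak in 58811 of them (39.98%, 95% Wilson interval 39.7 to 40.2). Only H1 had one in 57480 regions (39.1%, interval 38.8 to 39.3), called H1-only below. The H3-only regions numbered 30828 (21.0%, interval 20.7 to 21.2). All intervals express counting error alone: peaks close together depend on each other, and each line was sequenced as a single library. By covered bases, the Jaccard index of the lists (shared over combined bases) was 0.482.

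Width differed between the classes. The median width was 715 bp in shared, 216 bp in H1-only and 204 bp in H3-only regions. A shared region is the joined span of peaks of both lines, and a wider peak overlaps another list more easily. Width and class were therefore not independent. The median −log10 p was 6.48 in H1-only and 6.499 in H3-only regions, while shared regions stood at 13.6 in H1 and 14.2 in H3. Strong regions were seldom found in 1 line alone. Of regions with a −log10 p from 4 to below 6 in H1, 78.2% lacked an H3 peak, and of those at 40 or more, 0.619% did (49 of 7919). The same shares for H3 regions without an H1 peak fell from 66.5% to 0.158% (15 of 9511). In each of the 5 strength bins the share was higher for H1 than for H3. Few line-specific regions had a peak below the minimum in the other line. Such a peak lay in 275 H1-only regions and in 1370 H3-only regions (4.44%), at a median −log10 p of 3.93 in the latter. These counts were limited in advance, because only 1229 H3 peaks and 8933 H1 peaks lay below the minimum. Enrichment below the lowest deposited −log10 p, 3.01 in both lists, could not be seen. The counts therefore do not show that the other line had no enrichment.

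**Figure D1:**
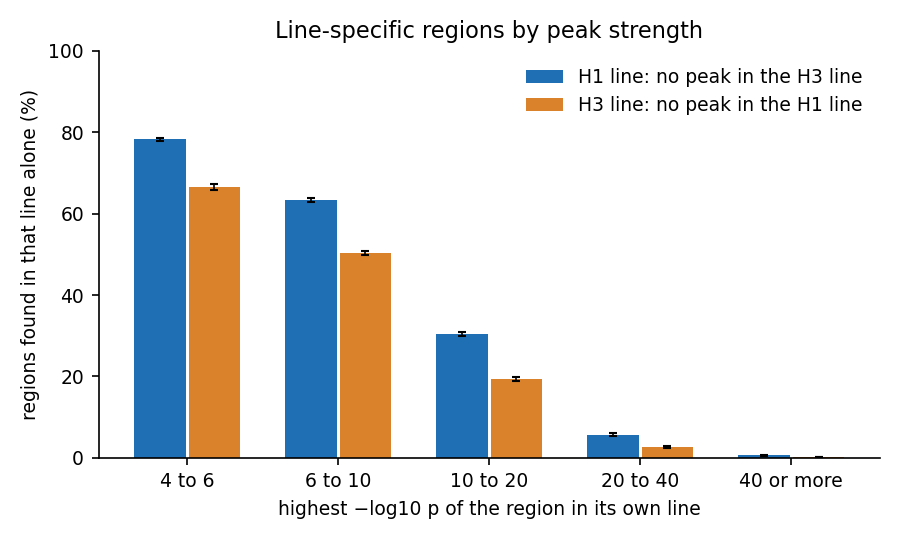
Share of the regions of each line that had no peak in the other line (vertical axis, percent), by the highest −log10 p of the region in its own line (horizontal axis). Bars are shares and error bars 95% Wilson intervals; the share falls from 78.2% to 0.619% in H1 and from 66.5% to 0.158% in H3.

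With the 101905 strongest peaks of each line, the H1 peaks reached down to a −log10 p of 5.59, where 12599 peaks were tied and 4965 of them were kept. The classes then had nearly the same size. There were 127967 regions, of which 38064 were H1-only (29.7%) and 36293 H3-only (28.4%), and 53610 were shared (41.9%). The Jaccard index was 0.493. The excess of H1-only over H3-only regions thus shrank from a ratio of 1.86 at the common minimum to 1.05 with equal numbers. Counts with equal numbers are given beside the main ones for the time course classes, the double lines and the chromosomes. Strength bins, regions private to 1 line, stretches and windows were counted at the common minimum alone, where the H1 list is the longer. Of the H3-only regions made with equal numbers, 6835 (18.8%) had a weaker H1 peak that the equal numbers had left out.

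Shared regions were covered to a similar extent in both lines. H1 peaks covered 85.7% and H3 peaks 82.3% of their 60.7 Mb. The H1 peaks covered more of the region in 31408 cases (53.4%) and the H3 peaks in 27244 (46.3%). Ranked by −log10 p within each line, the shared regions had a Spearman correlation of 0.734 over 58811 regions, given as a description. These regions share the genome sequence, the antibody and the caller, and wide regions have high values in both lists.

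Most line-specific regions had no peak at any time of the unedited time course. This held for 34555 H1-only regions (60.1%) and for 20660 H3-only regions (67.0%), against 14.6% of shared regions and 43.4% of all regions. A peak at all 7 times was found in 2.53% of H1-only, 0.723% of H3-only and 36.3% of shared regions. Regions found in 1 line were thus mostly regions that the lists of unedited cells did not contain. They were also mostly weak and narrow, and the part of strength in this was not tested. At a −log10 p of 20 or more, 74.7% of H1-only and 51.1% of H3-only regions had a wild-type 48 h peak.

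Where line-specific regions did meet the time course, the H1-only regions met it more often, and the gap was widest at 24 and 72 h. At -24 h a peak was found in 11.5% of H1-only and 9.65% of H3-only regions. At 0 h the shares were 16.2% and 12.8%, and at 6 h 15.7% and 11.9%. At 12 h, the longest of the time course lists, they were 21.4% and 15.9%. Up to this time the H1-only share was the higher at each time. The shares were 13.1% and 6.56% by 24 h, and 12.53% and 5.93% by 72 h. In wild-type cells sampled after 48 h, whose list came in the same format as those of the edited lines, they were 20.1% and 15.3%, so the 48 h library did not share the wide gap of 24 and 72 h. H3-only regions were therefore present at 72 h in a smaller share than at -24 h, and H1-only regions in a slightly larger one. Shared regions had 53.1% at -24 h and 52.2% at 72 h. The same order held with equal numbers of peaks, where 15.0% of H1-only and 7.29% of H3-only regions had a peak at 72 h, against 13.3% and 11.1% at -24 h.

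**Figure D2:**
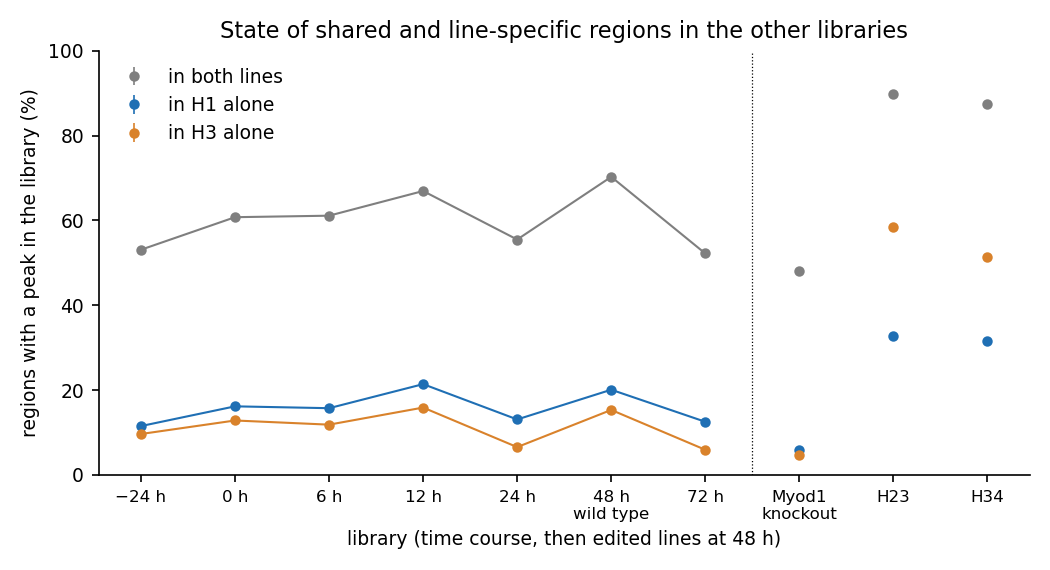
Share of regions with a peak in each other library (vertical axis, percent) for regions in both lines, in H1 alone and in H3 alone, across the time course in hours and then in the edited lines at 48 h. Points are shares with 95% Wilson intervals, mostly smaller than the points; the H1-only and H3-only lines run close at -24 h (11.5% and 9.65%) and apart at 72 h (12.53% and 5.93%).

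The gap at 24 and 72 h was also seen among strong line-specific regions, which met the time course most often. With a −log10 p of 20 or more there were 818 H1-only and 348 H3-only regions. At 24 h, 54.4% of the strong H1-only regions (interval 51.0 to 57.8) and 16.1% of the strong H3-only regions (12.6 to 20.3) had a peak. At 72 h these shares were 57.8% and 13.2%. At -24 h they were nearer, at 37.9% and 22.7%. In wild-type cells after 48 h they were 74.7% and 51.1%, a smaller gap than at 24 and 72 h. Between 10 and 20, the shares at 72 h were 25.3% and 9.77%, and between 4 and 6 they were 7.73% and 4.10%, so the order was the same in the weak regions.

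Regions were next grouped by the time course alone. A region was late-gained when the 24 and 72 h lists both contained it and neither the -24 nor the 0 h list did. It was early-lost when the reverse held. Stable regions were in all of these lists, and silent regions in none of the time course lists other than the wild-type 48 h one. The wild-type 48 h library was left out of the grouping because its format was that of the edited lines.

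Late-gained regions were seldom H3-only. Of 2266 late-gained regions, 777 were H1-only (34.3%, interval 32.4 to 36.3), 160 were H3-only (7.06%, interval 6.08 to 8.19) and 1329 were shared. Over all regions the shares were 39.1% and 21.0%, so the H3-only share lay far below its background and the H1-only share a little below. Early-lost regions leaned less to H1. Of 4703, 1336 were H1-only (28.4%, interval 27.1 to 29.7), below the background, and 1030 were H3-only (21.9%, interval 20.7 to 23.1), near it. The ratio of H1-only to H3-only regions was 4.86 in the late-gained class, 1.30 in the early-lost class and 1.86 over all regions.

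Equal numbers of peaks lowered these 3 ratios and kept their order. The ratio was then 2.77 among late-gained regions (632 H1-only and 228 H3-only), 0.706 among early-lost regions (921 and 1304) and 1.05 over all. H3-only regions thus outnumbered H1-only ones in the early-lost class with equal numbers, and not at the common minimum. The H3-only share of late-gained regions was 10.7% with equal numbers, against a background of 28.4%, and the H1-only share was 29.7%, the same as its background. Both classes were also defined with other times. With 12 and 24 h as the late times, 36.5% of late-gained regions were H1-only and 9.22% H3-only. With 48 and 72 h they were 27.8% and 5.37%. Early-lost regions were H1-only in 35.2% and H3-only in 25.2% of cases with 12 and 24 h, and in 36.7% and 24.9% with 48 and 72 h, so under these definitions their H1-only share lay nearer the background of 39.1%.

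**Figure D3:**
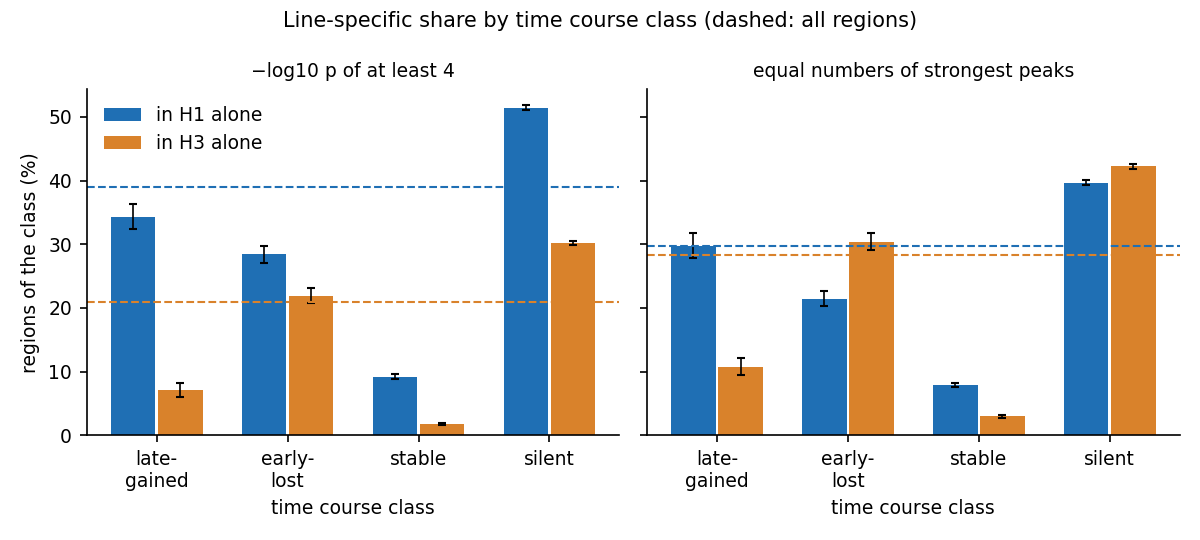
Share of the regions of each time course class found in H1 alone and in H3 alone (vertical axis, percent), at a −log10 p of at least 4 (left) and with equal numbers of strongest peaks (right). Bars are shares, error bars 95% Wilson intervals and dashed lines the shares over all regions; late-gained regions have an H3-only share of 7.06% on the left and 10.7% on the right, far under the dashed line.

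Stable regions were shared in most cases. Of 25870, 23019 were shared, 2380 H1-only (9.20%) and 471 H3-only (1.82%). Their ratio of 5.05 was as high as that of the late-gained class, and 2.67 with equal numbers. Low H3-only counts were therefore not particular to late-gained regions. The median width was 1082 bp in stable, 592 bp in late-gained and 363 bp in early-lost regions. Silent regions, at 223 bp, made up most of the line-specific ones. Of 76565 silent regions, 51.4% were H1-only and 30.2% H3-only. With equal numbers the order turned, to 39.7% H1-only and 42.2% H3-only.

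Grouping by strength gave the contrast between late-gained and early-lost regions within bins. Among H1-only regions, the late-gained share rose with strength, from 0.719% at a −log10 p of 4 to 6 to 5.38% at 20 or more. Among H3-only regions it stayed between 0.400% and 0.705%. The early-lost share went the other way. It lay between 1.47% and 2.58% in H1-only regions and climbed from 2.47% to 8.91% in H3-only regions. In the strongest bin the late-gained regions were 44 of 818 for H1 and 2 of 348 for H3, and the early-lost ones 12 and 31. Stable shares rose with strength as well, from 1.92% to 27.8% in H1-only and from 0.712% to 6.32% in H3-only regions. A rise with strength was therefore not particular to late-gained regions.

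Shared regions leaned the same way in their rank. Within each line the shared regions were given a percentile by their −log10 p, and the H3 percentile was taken from the H1 percentile. The median difference was 0.212 points over all shared regions. It was 5.77 points in the 1329 late-gained regions, 61.6% of which ranked higher in H1. In the 2337 early-lost regions it was -4.13 points, and 45.3% ranked higher in H1. Stable regions had a median of 0.207 points. The quartiles of late-gained regions, -10.1 and 22.8, and of early-lost regions, -18.7 and 10.5, overlapped widely. Shifts of more than 50 points toward H1 were seen in 52 late-gained and 10 early-lost regions, and toward H3 in 8 and 64. By fold enrichment in place of −log10 p the medians were 5.89 and -3.98 points. These ranks come from the same libraries as the counts above and are not independent of them.

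Line-specific regions rarely had a peak in the line without Myod1. The Myod1 knockout list, the shortest of the 12, had a peak in 3406 H1-only regions (5.93%, interval 5.74 to 6.12), 1462 H3-only regions (4.74%, interval 4.51 to 4.99) and 48.0% of shared regions. Over all regions the share was 22.5%. The line-specific regions were also the weak and narrow ones, and the part of strength in their absence from the knockout was not tested. When the wild-type library had a peak at 48 h, 14.0% of H1-only, 10.6% of H3-only and 60.4% of shared regions had one in the knockout. When it had none, the shares were 3.88%, 3.68% and 18.8%. Among strong regions, with a −log10 p of 20 or more, the knockout had a peak in 30.3% of H1-only and 18.7% of H3-only regions. Across the time course classes, the knockout had a peak in 10.7% of late-gained H1-only regions (83 of 777) and in 14.4% of late-gained H3-only regions (23 of 160). Their intervals, 8.70 to 13.1 and 9.77 to 20.6, overlapped. Among early-lost regions the counts were 167 of 1336 and 126 of 1030. Within these classes the H1-only and H3-only regions therefore had overlapping intervals in the knockout, and both stood below the shared regions of the same class, at 33.3% for late-gained and 35.5% for early-lost.

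H3-only regions had a peak in the double lines more often than H1-only regions. A peak in H23 was found in 58.5% of H3-only and 32.8% of H1-only regions, against 61.0% of all regions. In H34 the shares were 51.3% and 31.5%, against 58.0% of all regions. The H3-only shares were thus a little below those of all regions, and the H1-only shares far below. Both double lines had a peak in 12128 H3-only regions (39.3%) and in 11043 H1-only regions (19.2%). Neither had one in 9108 H3-only regions (29.5%) and in 31539 H1-only regions (54.9%). At a −log10 p of 20 or more, H23 had a peak in 89.7% of H3-only and 58.8% of H1-only regions, and H34 in 83.0% and 51.0%. With equal numbers, both double lines had a peak in 42.4% of H3-only and 21.7% of H1-only regions.

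Shares in both double lines were higher in each class where unedited cells had a peak as well. Of the 4724 H3-only regions with a wild-type peak at 48 h, both double lines had one in 3292 (69.7%) and neither in 381 (8.07%). Of the 11547 H1-only regions with a wild-type peak, both had one in 4508 (39.0%) and neither in 3347 (29.0%). These 3347 regions had a peak in unedited cells and in the line without H1, none in H23 or H34, and none in H3 at the common minimum. In the shared class, 1.73% of regions with a wild-type peak were missing from both double lines. Late-gained H1-only regions had a peak in H23 in 37.1% and in H34 in 39.8% of cases, and early-lost H1-only regions in 58.2% and 60.3%. H3-only regions had the same order, with 69.4% and 69.4% of late-gained and 85.0% and 75.9% of early-lost regions. So had shared regions, with 85.3% and 83.4% against 95.6% and 92.0%. The lower late-gained shares were therefore not particular to H1-only regions. The 3 lines without H3 are not independent of each other in their deletion, but each is a separate library.

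Some line-specific regions were found in no other library. Of the H1-only regions, 23121 (40.2%) had a peak in none of the 11 other deposited lists, and of the H3-only regions 7578 (24.6%). They were narrow, with a median width of 188 bp in H1 and 171 bp in H3, and weak, with a median −log10 p of 5.73 and 6.16. A −log10 p of 20 or more was reached by 37 of them in H1 and by 10 in H3. The other lists included H23 and H34, which carry the H3 deletion, but no second line without H1. H23 and H34 held 58.5% and 51.3% of H3-only regions, against 32.8% and 31.5% of H1-only ones. The shares found in no other list were thus not on an even footing.

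The widest and strongest single regions were described by the lists that held them. The widest H1-only region spanned 15209 bp on chromosome 17, from 7835829 to 7851037 in mm9, with a −log10 p of 49.8 and an enrichment of 18.6-fold. It had a peak in every other list used, all 7 times and the Myod1 knockout included, and none in the whole H3 list. The region of 5244 bp on chromosome 10, from 23065588 to 23070831, was also present in the 10 other lists. On chromosome 15 a region of 4372 bp, from 43544375 to 43548746, had the highest −log10 p of any H1-only region, 70.3. It was absent at -24 h and present at the other 6 times, in the knockout and in both double lines. These regions were thus parts of the ordinary C2C12 profile that the H3 list alone, or nearly alone, lacked.

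Other strong H1-only regions were late-gained or were found in few libraries. A region of 1187 bp on chromosome 3, from 101339373 to 101340559, was late-gained, with peaks at 12, 24, 48 and 72 h, none in the knockout, and a peak in H23 but not in H34. A region of 10667 bp on chromosome 8, from 107390471 to 107401137, and its neighbour of 3978 bp, from 107409235 to 107413212, had −log10 p values of 66.9 and 65.3. Both were called in wild-type cells at 48 h and in H23, and in no other list. Each of the H1-only regions among the 5 widest or the 5 strongest had a wild-type peak at 48 h and one in H23.

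The widest and strongest H3-only regions were mostly found at few times of the time course or none. The widest spanned 5774 bp on chromosome 7, from 46865292 to 46871065. It had a peak in H23 and in no other list, and so had 2 others nearby, from 46871840 to 46875955 and from 47120966 to 47125381. The strongest lay on chromosome 2, from 24322367 to 24324356, with a −log10 p of 65.8. It was seen in the wild-type library at 48 h, in the Myod1 knockout and in both double lines, and at none of the other times. A region on chromosome 3, from 67840703 to 67842784, had the same pattern without the knockout. In contrast, the region of 3534 bp on chromosome 16, from 4551334 to 4554867, had a peak in all 10 other lists and lacked one in H1 alone. Each of the H3-only regions among the 5 widest or the 5 strongest had a peak in H23.

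Line-specific regions also ran together over long stretches. A stretch was a run of neighbouring regions within the distance commonly used to join enhancers into super-enhancers, all specific to the same line and absent from the whole list of the other. Runs of 20 or more regions numbered 64 in H1, with 1887 regions (3.30%), and 9 in H3, with 284 regions (0.964%). The H1 stretch with the most regions held 69, on chromosome 6, from 30533179 to 30628870. The -24, 0, 6 and 12 h lists contained 3, 12, 13 and 24 of them, the 24 and 72 h lists 22 and 23 and the wild-type 48 h list 7, while the lists of the Myod1 knockout, H23 and H34 contained none. The second held 65 regions on chromosome 11, from 11780294 to 11874609, of which 54 had no time course peak. In the third, 52 regions on chromosome 17 from 7860801 to 7948292, beside the widest H1-only region, 39 had a peak in H34, 20 in H23 and 5 in the knockout. Absence from H3 was part of the definition of these stretches. The first of them met every time course list in part and neither double line, whereas the last was present in H34 to a large part.

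The H3 stretch with the most regions lay on chromosome 7, from 46836928 to 46912570. None of its 51 regions had a peak in the time course, the knockout or H34, while 32 had one in H23. The second, 38 regions on chromosome 3 from 131750578 to 131831757, had 16 in H23 and 14 in H34, and 1 at -24 h. None of the 33 regions of the third, on chromosome 3 from 67770253 to 67805268, met the time course, and 7 had a peak in H23.

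The H3 list was empty over long intervals in which the H1 line, and in most cases other libraries, had peaks. An interval was the space between neighbouring peaks of one whole list, and it was counted when it held 20 or more peaks of the other line. The H3 list had 153 such intervals, which held 5056 H1 peaks (3.92%) over 67.4 Mb. The H1 list had 20, which held 672 H3 peaks (0.659%) over 12.0 Mb. When the strongest peaks of H1 were taken in equal number, the H3 list still had 82. The double lines had 33 and 23 against each other. No neighbouring pair among the 6 time course lists other than that of 48 h had any. The wild-type 48 h list had 9 against the 24 h peaks, 58 against the H1 peaks and 28 against the H3 peaks. Against the wild-type 48 h peaks, the H3 list had 14 and the H1 list 0. Of the 153 intervals, 150 held a peak of the wild-type library at 48 h, 132 of the 24 h library, 134 of H23, 133 of H34 and 109 of the knockout. In the same order, 2.18%, 2.09%, 1.37%, 1.32% and 1.07% of the peaks of these lists lay inside. Of the 20 intervals without H1 peaks, 14 held a wild-type peak at 48 h, 4 a peak at 24 h, and 19 a peak in H23. Of these lists 0.116%, 0.0462% and 0.446% lay inside. How many intervals of such length hold a peak elsewhere in the genome was not counted. Copy number was not measured. Missing DNA and missing acetylation in an interval or a stretch cannot be told apart in peak lists.

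The interval on chromosome 14 from 22807567 to 25019283, 2.21 Mb long, was the longest of the 5 with the most H1 peaks. The -24, 0, 6 and 12 h lists contained 96, 141, 134 and 153 peaks there, and the 24 and 72 h lists 147 and 134. Wild-type cells at 48 h had 35 and the H1 line 111. H3 and H34 had none, H23 had 3 and the Myod1 knockout 5. The absence from H3 was set by the choice of the interval. This interval thus held many peaks in unedited cells, fewest of them at 48 h, and few or none in H23, H34 and the knockout. The remaining 4 were not shared in this way. On chromosome 3, from 52205740 to 52820566, the H1 line had 126 peaks, H23 49, H34 19 and the knockout 9. On chromosome 15, from 43309638 to 44258576, H1 had 111, H23 26, H34 31 and the knockout 38.

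Intervals without H1 peaks held few peaks of unedited cells. The one with the most H3 peaks lay on chromosome 7, from 46972388 to 48648236. It held 61 H3 peaks, 82 of H23, 6 of H34, 1 of the wild-type library at 48 h, 1 of the knockout and none of the remaining 6 time course lists. On chromosome 5, from 97829313 to 98235531, H3 had 49 peaks, H23 110 and H34 55, against 5 in the wild-type library at 48 h and none elsewhere.

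**Figure D4:**
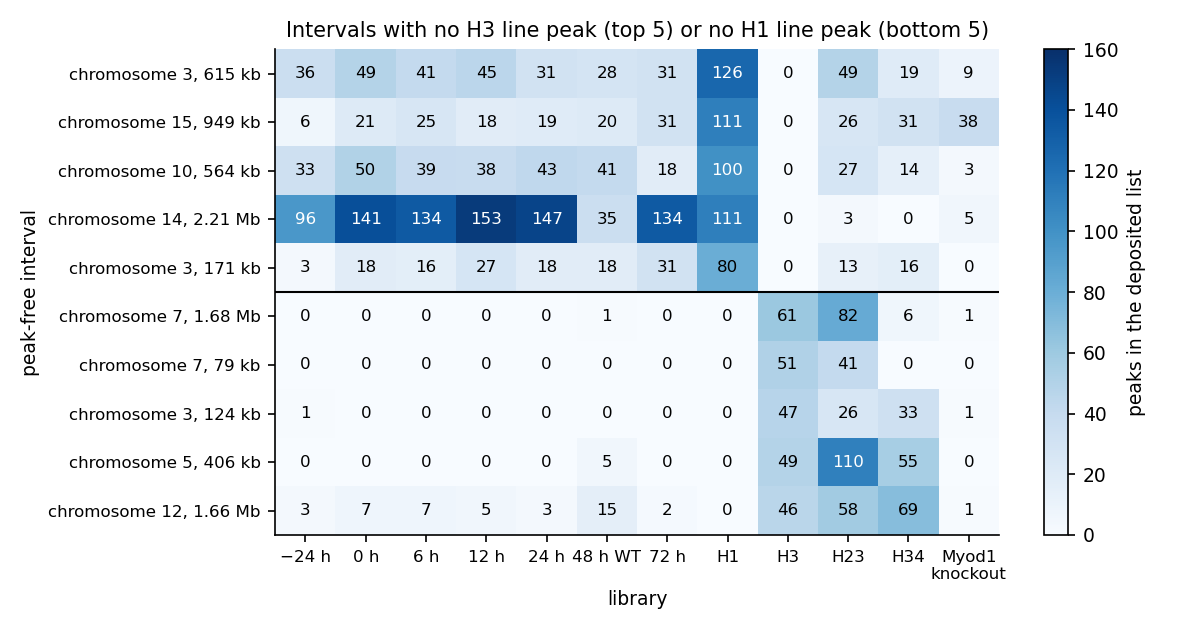
Number of peaks (cell text and colour) of each library (columns) in the 5 intervals with the most H1 peaks and no H3 peak (top) and the 5 with the most H3 peaks and no H1 peak (bottom). The chromosome 14 interval holds 96 to 153 peaks in the 6 time course lists other than 48 h and 0 in H3 and H34, and the top interval on chromosome 7 holds 61 in H3 and 0 in H1.

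Chromosome 3 leaned to H1 more than any other. On it 53.7% of regions were H1-only (5359 of 9981) and 14.1% H3-only (1407), a ratio of 3.81. Chromosome 15 followed with 2.63 and chromosome 4 with 2.47. The lowest ratios were 1.18 on chromosome 1, where 33.8% were H1-only and 28.6% H3-only, and 1.42 on chromosome 11. Chromosome Y, with a single region, was H3-only. With equal numbers the ratios were 2.21 on chromosome 3, 1.46 on chromosome 15, 1.33 on chromosome 4, 0.678 on chromosome 1 and 0.789 on chromosome 11, so the order of these chromosomes was the same and the last 2 turned to H3. The ratio also fell below 1 with equal numbers on chromosomes 2, 5, 7, 9, 12, 17 and 18.

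The lean ran over the whole of chromosome 3. At the common minimum, all 16 of its windows of 10 Mb had more H1-only than H3-only regions, with ratios of 1.39 to 9.20. In the genome 219 of 256 windows did. The same held for every window of chromosomes 4, 8, 15 and 19 (15, 14, 11 and 6 windows). A lean in every window was therefore not particular to chromosome 3. Its median window ratio was 4.63, against 1.89 over all windows. The H1 peaks on chromosome 3 made up 7.24% of all bases covered in H1, against 5.45% in H3 and 4.01% to 5.99% in the 10 other lists. On chromosome 1 the H1 line had the lowest share of all lists, 5.37%, against 6.35% in H3 and 5.743% to 6.997% elsewhere. Shared regions leaned likewise, with a median percentile difference of 6.40 points toward H1 on chromosome 3 and -3.62 points on chromosome 1. More copies of a chromosome and more acetylation along it cannot be told apart in peak lists. Without chromosome 3 the genome had 38.0% H1-only and 21.5% H3-only regions.

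**Figure D5:**
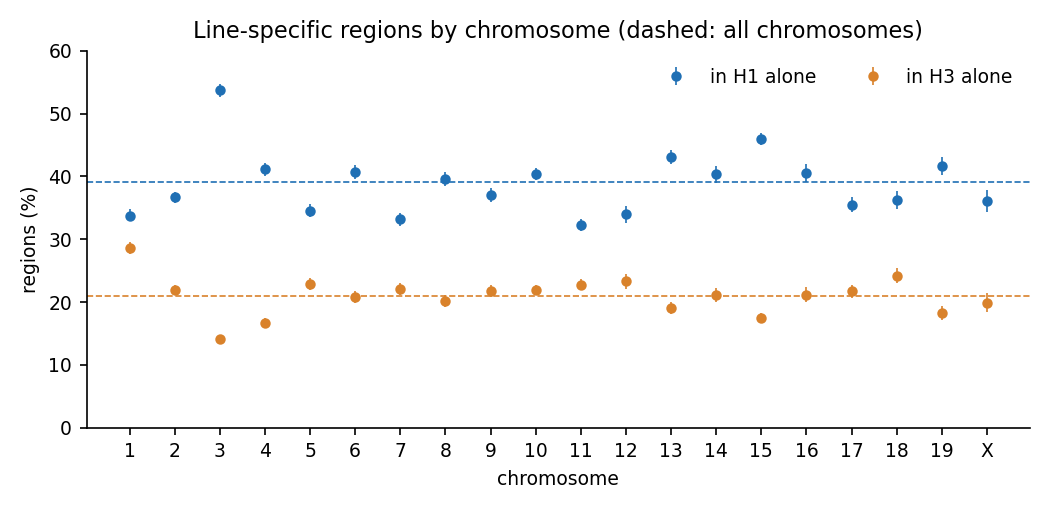
Share of regions in H1 alone and in H3 alone (vertical axis, percent) on each chromosome except Y, with 95% Wilson intervals and the shares over all chromosomes as dashed lines. Chromosome 3 stands out at 53.7% H1-only, and chromosome 1 has the highest H3-only share of those drawn, 28.6%.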

How the data were processed

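Per the submitters' processing notes, MACS2 2.1.0 and the mm9 build were used to make the H3K27ac ChIP-seq peak lists, 1 for each library. Which aligner, filters, control and cutoffs served is not given in the sources used here. The deposited lists of the 48 h libraries had 10 columns in MACS2 order, with a score, the fold enrichment, the −log10 p-value and −log10 q-value, and the summit position, which was not used. The other 6 deposited time course lists had 5 columns and a score of unstated unit, which was not used. All values are the authors' own for each peak and were ranked or filtered within a list only.

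Peaks of H1 and H3 with a −log10 p of at least 4 on chromosomes 1 to 19, X and Y were merged into regions where they overlapped by 1 base. A region had a peak in another library when it overlapped the whole deposited list of that library. For equal numbers, ties in −log10 p were broken by fold and then by a seeded draw. Shares carry 95% Wilson intervals. Named regions were, per line, the 5 widest and 5 strongest regions absent from the other line's whole list, the 3 stretches with the most regions, and the 3 chromosomes with the highest and lowest ratios. The comparison, the classes and the lists were chosen with earlier results of these data known. Peak-free intervals, rank differences, other class times and the run without chromosome 3 were added after the data were seen. No annotation or genome of mm9 was used, so no gene was named from a position, no sequence is printed, muscle markers were not checked and no gene list was counted. The code was tested on simulated intervals. Python 3.11.15, numpy 2.4.6, pandas 2.3.3, scipy 1.17.1 and matplotlib 3.10.9 were used.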

Additional observations from a re-analysis of the deposited data

How the results depend on the processing

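Values are H1-only then H3-only where 2 are given; for the classes, the H1-only share of late-gained and the H3-only share of early-lost regions. Of 83 alternatives for 11 results, 69 moved the value, shares beyond the counting interval and the Jaccard index, which has none, by any change left after rounding, and the cause was not tested. These are single shares with no direction. Between the lines, the early-lost ratio of H1-only to H3-only turned from 1.30 to 0.706 and the silent ratio from 1.70 to 0.940 with equal numbers. The H3-only share of late-gained regions, 7.06%, was 9.34% at a −log10 p of at least 6, 10.7% with equal numbers, 3.01% with peaks within 1 kb merged, and 9.22% and 5.37% with classes from 12 and 24 h and from 48 and 72 h. No paired analysis was possible because each group had 1 library. Read depth was unknown and leaving out a replicate was not possible.

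With no further cutoff, the shares of all regions were 41.4% and 19.5%, with a wild-type 48 h peak 18.8% and 14.6%, with a knockout peak 5.54% and 4.45%, with no time course peak 61.7% and 68.4%, the Jaccard index 0.478 and early-lost 20.3%. With a −log10 p of at least 6 they were 33.8% and 22.6%, 28.2% and 21.9%, 8.78% and 7.61%, 51.1% and 57.3%, 0.499 and 27.5%. With a −log10 q of at least 3 they were 36.5% and 22.3%, 22.98% and 17.3%, 6.84% and 5.58%, 56.8% and 63.9%, 0.489 and 23.7%. With equal numbers they were 29.7% and 28.4%, 24.4% and 18.0%, 7.35% and 5.83%, 55.0% and 63.3%, 0.493 and 30.4%, and late-gained 29.7%.

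With an overlap of 50% of the shorter peak, the shares were 39.8% and 21.6%, 17.6% and 13.3%, 5.24% and 4.17%, 63.6% and 70.6%. With peaks within 1 kb merged they were 31.8% and 14.9% of regions, 23.3% of H1-only with a wild-type peak, 7.79% of H1-only with a knockout peak, 71.0% of H3-only with no time course peak, a Jaccard index of 0.516, late-gained 29.99% and early-lost 15.4%. With absence from the whole list, H3-only values were 20.02%, 14.8% with a wild-type peak and 68.0% with no time course peak, and early-lost 20.6%. Without the wild-type 48 h library, 68.5% and 75.02% had no time course peak. Without chromosome 3 the shares were 38.0% and 21.5%. Classes from 12 and 24 h gave 36.5% late-gained and 25.2% early-lost, and from 48 and 72 h 27.8% and 24.9%.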

Other observations

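Line-specific regions differed in how near they lay to shared ones. The median distance to the nearest shared region was 2.83 kb for H1-only and 1.36 kb for H3-only regions, and 35.4% and 45.5% lay within 1 kb. Beyond 50 kb lay 11.2% and 6.89%. Among the regions beyond 50 kb, 52.9% of H1-only and 67.2% of H3-only regions had no time course peak.

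Against the peaks of unedited cells at 24 h, intervals that a list left out and that held 20 or more of these peaks numbered 57 in H3, 26 in H34, 22 in H23 and 7 in H1. The Myod1 knockout had 87 and the wild-type library at 48 h had 9. The H3 list was longer than the wild-type one, at 103134 against 71281 peaks, and yet left out more of these 24 h intervals. Set against each other, the order turned. The H3 list left out 14 such intervals of wild-type 48 h peaks, and the wild-type list left out 28 of H3 peaks.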
